A study of Mus musculus with 6 samples.

Results

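The MYC, MAX and MXD network is a family of basic helix-loop-helix leucine zipper transcription factors that bind DNA as pairs. Its members were taken by symbol as *Myc*, *Mycn*, *Mycl*, *Max*, *Mxd1*, *Mxd4*, *Mxi1*, *Mnt*, *Mlx*, and *Mga*, and all 10 were found among the 26264 genes of the deposited table. RNA-seq was performed on hematopoietic stem cells (HSCs) sorted from the bone marrow of 8-week-old, untreated mice. The groups were 3 C57Bl/6 wild-type (WT) mice and 3 *Irf1-/-* mice of the strain B6.129S2-Irf1 tm1Mak/J, with 1 library per mouse. The allele is carried by every cell of the animal, so changes that begin in HSCs and changes that begin elsewhere in the mouse cannot be told apart.

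MYC, MYCN, and MYCL pair with MAX and activate transcription at E-box motifs, and their products drive ribosome assembly, anabolic metabolism, and entry into the cell cycle. MXD1, MXD4, MXI1, and MNT compete for MAX and recruit the SIN3 and histone deacetylase corepressor, whereas MGA brings MAX into a noncanonical Polycomb complex. MLX is the MAX-like partner of MNT, MXD1, MXD4, and the glucose-sensing factors MondoA and ChREBP. In HSCs, MYC and MYCN are known for their overlapping roles in survival, proliferation, and the balance between self-renewal and differentiation.

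Values are normalized counts, that is, reads on a gene divided by 1 size factor per library. Reads on genes numbered 59658080, 45332573, and 43267486 in WT replicates 1, 2 and 3 and 43138521, 57281017, and 45129929 in *Irf1-/-* replicates 1, 2 and 3. The test was limma on log2(normalized count + 1), fitted over the 17404 genes with a mean of at least 10, and fold changes divide *Irf1-/-* by WT. For genes with few reads the pseudocount of 1 makes a change look smaller. Calls required both an adjusted *P* under 0.05 and a log2 fold change of more than 0.58 in size. The libraries carry no molecular identifiers, so floors and intervals from reads cover counting error only. Fewer cells of a type and less RNA per cell cannot be told apart in these bulk libraries.

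*Irf1* itself had 10122, 11120, and 12057.5 normalized counts in WT replicates 1, 2 and 3 and 9267, 9524, and 9287 in the *Irf1-/-* replicates. The *Irf1-/-* mean was thus 84.3% of the WT mean (log2 fold change −0.24, adjusted *P* = 0.170, limma). The total over the gene does not separate the targeted part from the rest, so these counts alone do not check the genotype labels, and every direction given here rests on the labels.

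The labelled cell type was compared with its markers. All 10 HSC markers were measured in every library, with summed normalized counts between 192335 and 212111 in WT and between 206409 and 229972 in *Irf1-/-* HSCs. Of these, *Fgd5* was called higher in *Irf1-/-* HSCs (log2 fold change 0.83), and *Procr* (0.52) and *Ly6a* (−0.43) had an adjusted *P* under 0.05 below the fold threshold. *Ly6a* missed that *P* without WT replicate 2 or *Irf1-/-* replicate 1 or 3. The 4 hemoglobin genes were listed at 0 in all 6 libraries, and *Cd3e* and *Cd8a* had at most 7.89 normalized counts. The summed level of 5 B cell markers was between 2649 and 3099 and came mostly from *Cd79b*. The 6 T and NK cell markers summed to between 655 and 805 in WT and between 723 and 1224 in *Irf1-/-* HSCs, and the most abundant per length was *Klrb1c*. WT replicate 3 stood apart in the 8 mature myeloid markers, which summed to 4243 normalized counts there and to 1100 and 2136 in WT replicates 1 and 2. In the *Irf1-/-* replicates this sum was 2149, 1753, and 3172. *S100a8*, the most abundant of them per length in WT replicate 3 and not in the other libraries, where *Itgam* was, had 1033 normalized counts in WT replicate 3 and between 13.5 and 110.0 in the other libraries, and *Ly6g* had 46.3 there and at most 1.07 elsewhere.

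Markers of erythroid and megakaryocyte cells were lower in *Irf1-/-* HSCs. Of 3 tested erythroid markers 2 were called lower, *Klf1* (log2 fold change −0.72) and *Car1* (−3.51), and the summed level of all 7 was 3102, 2380, and 3838 in WT and 1761, 663, and 1046 in *Irf1-/-* HSCs. Leaving out WT replicate 1 or 2 or *Irf1-/-* replicate 1 or 2 ended the call of *Klf1*, and leaving out *Irf1-/-* replicate 2 or 3 ended that of *Car1*, which neither edgeR (adjusted *P* = 0.475) nor DESeq2 (0.198) passed. Of 5 megakaryocyte markers 2 were called lower, *Pf4* (−1.11) and *Gp1bb* (−0.90), where limma called 166 of all 17404 tested genes lower. *Pf4* passed in DESeq2 (adjusted *P* = 0.00315) and not in edgeR (0.0638). The sum of those 5 was 47319, 60305, and 45164 in WT and 40363, 24765, and 35754 in *Irf1-/-* HSCs. The part of these markers in the results below was not tested. The first principal component of all tested genes held 32.4% of the variance and did not follow genotype. Its scores were 39.2 in WT replicate 3, 37.4 in *Irf1-/-* replicate 1, and 30.8 in *Irf1-/-* replicate 3, against −36.7 and −41.9 in WT replicates 1 and 2 and −28.8 in *Irf1-/-* replicate 2.

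*Mycn* was the member that differed most clearly between genotypes. Its normalized counts were 22886, 23965, and 21857 in WT replicates 1, 2 and 3. In *Irf1-/-* HSCs they were 30484, 30400.2, and 29841. All 3 *Irf1-/-* libraries lay above all 3 WT libraries, and the *Irf1-/-* values lay within a narrow range. The means were 22902.5 ± 1054 (SD, *n* = 3) and 30242 ± 349.5 (SD, *n* = 3), so that *Irf1-/-* HSCs held 132% of the WT level. The log2 fold change was 0.40 (SE 0.083, 95% confidence interval 0.22 to 0.58, adjusted *P* = 0.0177, limma), under the fold threshold for a call. The adjusted *P* was 0.0913 without WT replicate 1, 0.0682 without *Irf1-/-* replicate 1, and 0.105 without *Irf1-/-* replicate 3, within a range of 6.05e-05 to 0.199 over 15 alternatives. The fold change itself was between 0.37 and 0.48 in all of these.

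*Myc*, the most abundant member per length in WT HSCs, had 25700 (replicate 1), 30352 (replicate 2), and 21152 (replicate 3) normalized counts in WT. The *Irf1-/-* libraries had 24898, 28608, and 26935. All *Irf1-/-* values lay inside the WT range. The log2 fold change of *Myc* was 0.073 (SE 0.12, 95% confidence interval −0.18 to 0.33, adjusted *P* = 0.842, limma), and it was −0.061 without WT replicate 3. The number of *Mycn* reads for each *Myc* read was 0.891, 0.790, and 1.03 in WT replicates 1, 2 and 3. In the *Irf1-/-* replicates it was 1.22, 1.06, and 1.11, above every WT library.

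*Mycl*, the third MYC paralog, was near the floor of detection. It had 0, 13, and 21 reads in WT replicates 1, 2 and 3 and 0 reads in each *Irf1-/-* library, where 3 reads would be worth 3.20, 2.59, and 3.11 normalized counts. Against this floor of 3 reads per library, the *Irf1-/-* mean was at least 4.18-fold lower than the WT mean of 12.4 ± 11.5 (SD, *n* = 3). Without WT replicate 3 this bound was 2.47-fold, and without WT replicate 1 it was 6.27-fold. WT replicate 1 also had 0 reads, so the groups overlap, and *Mycl* did not reach the mean for testing. With no filter its log2 fold change in limma was −2.84 (unadjusted *P* = 0.0128, adjusted *P* = 0.202).

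*Max*, the shared partner, was the tested member with the widest spread over WT mice. It had 281 (replicate 1), 473 (replicate 2), and 1212 (replicate 3) normalized counts in WT and 886, 516, and 825 in *Irf1-/-* HSCs. The 3 highest libraries were WT replicate 3 and *Irf1-/-* replicates 1 and 3, which are the 3 with positive scores on the first principal component. The coefficient of variation of *Max* over WT mice was 75.0%, against a median of 12.8% over all tested genes. The log2 fold change was 0.41 (SE 0.38, 95% confidence interval −0.41 to 1.23, adjusted *P* = 0.682, limma), an interval that holds changes in both directions. It depended on single WT mice. Without WT replicate 3, the library with the highest *S100a8* and *Ly6g*, *Max* was called higher in *Irf1-/-* HSCs (log2 fold change 0.98, adjusted *P* = 0.0417, limma, in a range of 0.0417 to 0.972 over 15 alternatives), and without WT replicate 1 the log2 fold change was −0.068.

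*Mlx*, the MAX-like partner, had 2548 (replicate 1), 2673 (replicate 2), and 2119 (replicate 3) normalized counts in WT and 2300.5, 2473, and 2375 in *Irf1-/-* HSCs. The groups overlapped, with a log2 fold change of −0.032 (95% confidence interval −0.26 to 0.20, adjusted *P* = 0.937, limma). It was 0.0010 without WT replicate 1, 0.036 without WT replicate 2, and −0.13 without WT replicate 3.

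Among the repressor members, *Mxi1* and *Mxd1* did not overlap between genotypes, in opposite directions. *Mxi1* had 4607, 4703, and 4570.0 normalized counts in WT and 5337, 5185, and 5105 in *Irf1-/-* HSCs. Its log2 fold change was 0.17 (SE 0.082, 95% confidence interval −0.0061 to 0.35, adjusted *P* = 0.325, limma). *Mxd1* had 3356, 3318, and 3384 in WT and 3294, 3039, and 2851 in *Irf1-/-* HSCs, for which limma gave −0.13 on the log2 scale (SE 0.092, adjusted *P* = 0.542). The WT libraries of *Mxd1* were unusually close together, with a coefficient of variation of 0.998%. Neither difference passed the test, and with quantile normalization or TMM the *Mxd1* libraries overlapped.

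*Mxd4*, *Mnt*, and *Mga* overlapped between genotypes. *Mxd4* had between 1072 and 1199 normalized counts in WT and between 1135 and 1382 in *Irf1-/-* HSCs (log2 fold change 0.16, adjusted *P* = 0.5804, limma). *Mnt*, a broadly expressed antagonist of MYC, had between 628 and 842 in WT and between 677 and 776.5 in *Irf1-/-* HSCs (0.089, adjusted *P* = 0.854, limma). *Mga* had between 4107 and 4588 in WT and between 4102 and 4359 in *Irf1-/-* HSCs (−0.057, adjusted *P* = 0.832, limma). *Mga* overlaps the pseudogene *Gm13998*, *Mlx* overlaps *Psmc3ip*, and *Mxd1* and *Mxi1* overlap the noncoding genes *Gm38850* and *Gm30541*, in a gene table of assembly GRCm38.p6. Whether reads were counted by strand is not given, and reads of such pairs could have gone to either gene.

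Of the 10 members 9 were tested and 0 were called by limma, where 1.91% of all tested genes were called. Of the members, 1 (*Mycn*) had an adjusted *P* under 0.05, as did 3.22% of the tested genes, and it was also the only tested member with an unadjusted *P* under 0.05 in limma. It was likewise the only member with an adjusted *P* under 0.05 in edgeR (0.00936, where 3.54% of genes passed) and in DESeq2 (6.05e-05, where 9.79% passed), and neither tool called a member with the fold threshold. The libraries of 3 members, *Mycn*, *Mxi1*, and *Mxd1*, did not overlap between genotypes, that is, 33.3% of those tested against 19.9% of all tested genes. With quantile normalization or TMM the libraries of *Mxd1* overlapped, which leaves *Mycn* and *Mxi1*, where 23.2% and 20.4% of the tested genes did not overlap. With WT replicate 3 left out 5 members did not overlap, where 38.2% of the tested genes did not.

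**Figure D1:**
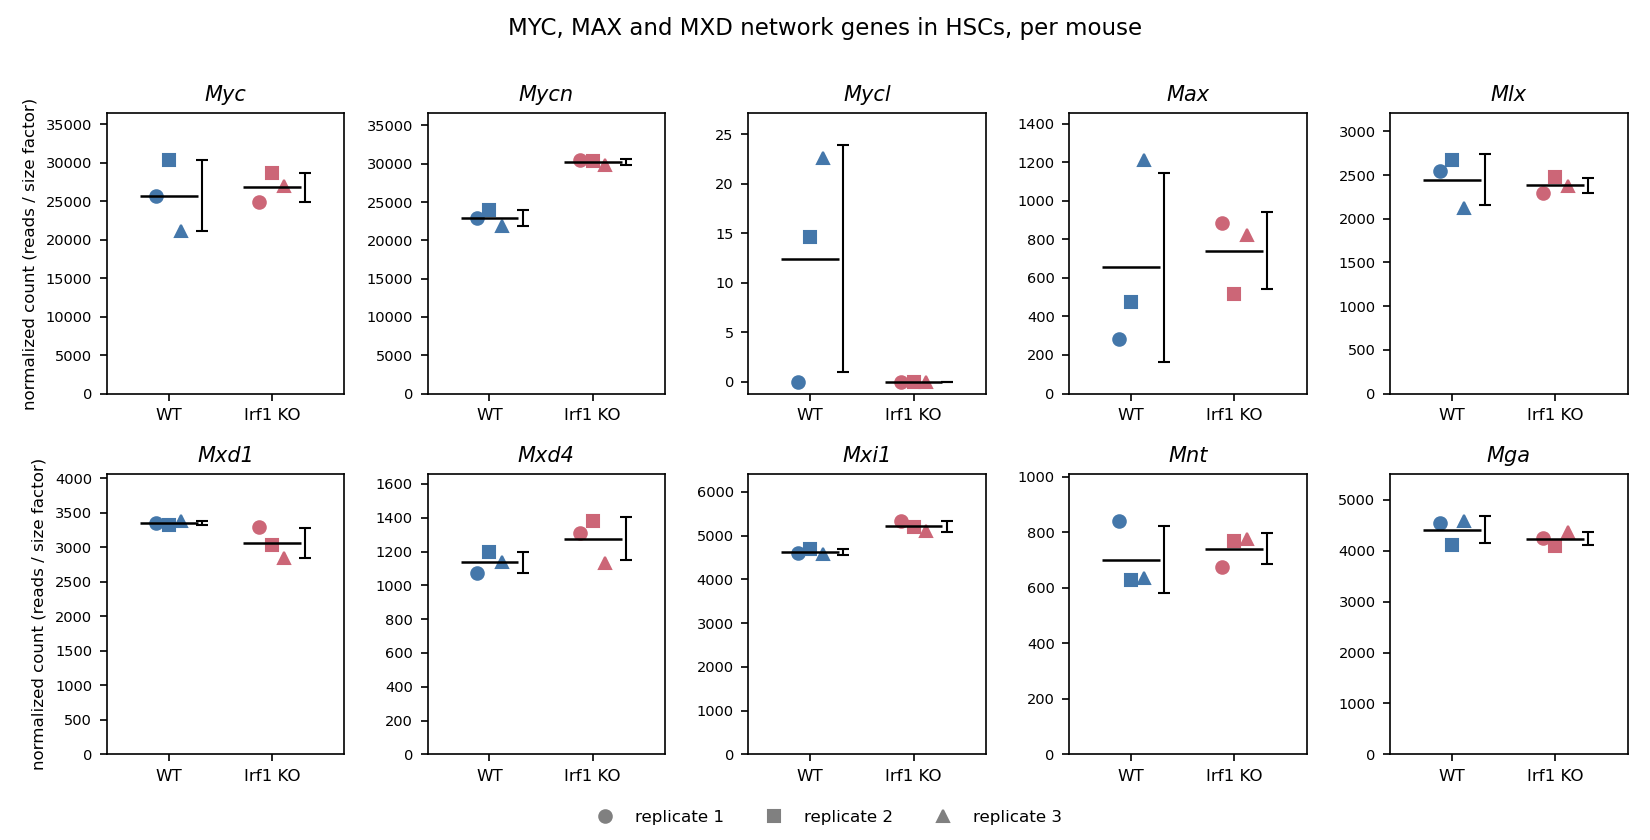
Normalized counts (reads divided by the size factor, vertical axes from about 0) of the 10 network genes in HSCs of WT (blue) and *Irf1-/-* (red) mice, with 1 point per mouse, the mean as a horizontal line, and the SD as an error bar beside it. All *Irf1-/-* points of *Mycn* sit between 29841 and 30484, above the WT points at 21857 to 23965, whereas the WT points of *Max* spread from 281 to 1212.

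Levels of different genes were compared per kilobase of their longest transcript. In WT HSCs *Myc* had 11007 ± 1968 and *Mycn* 8574.5 ± 395 normalized counts per kilobase (SD, *n* = 3), and both were above 99.0% of the tested genes in total count. *Mlx* followed with 1245 ± 148, then *Mxi1* with 897 ± 13.3 and *Mxd1* with 719 ± 7.18 normalized counts per kilobase. *Max* (327 ± 245), *Mga* (317 ± 19.0), and *Mxd4* (293 ± 16.4) lay within the spread of one another, although the level of *Max* was 188 without WT replicate 3, below both, and 420.4 without WT replicate 1. *Mnt* (153 ± 26.4) and *Mycl* (3.55 ± 3.27) came last. With the median transcript length in place of the longest, *Mxd4* stood at 452 and *Mnt* at 269, so the order of such levels depends on which transcript is used.

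In *Irf1-/-* HSCs *Mycn* and *Myc* lay within their spread of each other, at 11322 ± 131 against 11469 ± 795 normalized counts per kilobase of the longest transcript (SD, *n* = 3). With the median transcript length *Mycn* stood below *Myc* there, at 11647 ± 135 against 13383 ± 927 (SD, *n* = 3). *Mycn* was 44.1% ± 3.32 of the *Myc* and *Mycn* level in WT and 49.7% ± 1.82 in *Irf1-/-* HSCs (SD, *n* = 3), and 41.0% ± 3.26 and 46.6% ± 1.81 with the median length. The summed level of the 3 MYC genes per kilobase was 19560.4, 21958, and 17237 in WT replicates 1, 2 and 3 and 22062.5, 23618, and 22693 in the *Irf1-/-* replicates. Every *Irf1-/-* sum was above every WT sum on this scale, whereas with the median length the groups overlapped, with 24168 in *Irf1-/-* replicate 1 and 24384 in WT replicate 2. The summed level of *Mxd1*, *Mxd4*, *Mxi1*, *Mnt*, and *Mga* was 2379 ± 17.8 in WT and 2462 ± 78.8 in *Irf1-/-* HSCs. MYC genes thus made up 83.1% ± 1.94 of the network's transcripts per kilobase in WT and 84.9% ± 0.685 in *Irf1-/-* HSCs, a difference of the size of the spread between mice. MYC transcripts exceeded *Max* transcripts per kilobase by a ratio between 28.5 and 139 in WT and between 49.9 and 91.8 in *Irf1-/-* HSCs.

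The genes whose profile over the 6 libraries was closest to that of *Mycn* were *Slx4*, *Afap1l1*, and *Tnip1*, with root mean square differences of 0.036, 0.037, and 0.041 in centred log2 values. There were 207 genes within 0.1 of *Mycn*. For *Myc* the closest were *Vps26b* (0.030), *Rexo4* (0.032), and *Ermp1* (0.035), and 539 genes lay within 0.1.

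Promoter sequences of RefSeq (assembly GRCm38.p6, 250 bases before to 50 bases after the start) were found for 9 of the 10 members, with no entry for *Myc*. They were searched on both strands for the E-box CACGTG, the interferon regulatory factor motif GAAANNGAAA, and the GC box GGGCGG. The E-box was present in 4 of the 9 members, against 10.7% of the 13682 tested genes with a promoter and 8.09% of all 27025 genes in the promoter table. GAAANNGAAA was found in 0 of the 9 members, against 3.70% of the tested genes and 3.99% of all. The GC box was found in 7 of the 9, against 60.3% of the tested genes and 38.2% of all. A match is a run of letters and not a measured binding site. The E-boxes of the members are shown in capitals with 10 bases on each side, because this is the motif that the network itself binds, each on the strand of its gene.
Max, chr12:76962236-76962261 (−): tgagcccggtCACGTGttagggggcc
Mxd4, chr5:34187914-34187939 (−): gctgggccacCACGTGctgttgctaa
Mnt, chr11:74830791-74830816 (+): ccacccaagcCACGTGtgcgcgcgcg
Mlx, chr11:101087240-101087265 (+): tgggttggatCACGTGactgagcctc
The motif begins 3 bases before the start in *Max*, 219 in *Mxd4*, 123 in *Mnt*, and 40 in *Mlx*, and limma passed none of these 4 genes at an adjusted *P* of 0.05 with all 6 libraries.

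The promoter of *Mycn* is given whole because *Mycn* was the member with an adjusted *P* under 0.05. It holds no CACGTG and no GAAANNGAAA. It was also searched for TTTGGCGC, a form of the E2F motif that was picked from this sequence, so that its presence here was fixed by the choice. It occurs 2 times in *Mycn*, and 0.979% of the tested genes and 0.585% of all genes with a promoter hold it. Capitals mark TTTGGCGC and the GC box on either strand.
Mycn, chr12:12941787-12942086 (−): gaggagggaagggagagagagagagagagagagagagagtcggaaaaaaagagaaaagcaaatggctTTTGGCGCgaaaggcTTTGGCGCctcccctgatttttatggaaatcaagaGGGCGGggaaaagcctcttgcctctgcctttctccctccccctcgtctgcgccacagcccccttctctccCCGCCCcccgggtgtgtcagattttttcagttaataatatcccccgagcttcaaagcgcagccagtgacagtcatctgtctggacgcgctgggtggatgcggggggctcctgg

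The other genes of the network were *Mxd3*, a repressor linked to dividing cells, and *Mlxip* and *Mlxipl*, which encode MondoA and ChREBP. *Mxd3* had 828, 859, and 685 normalized counts in WT and 591, 744, and 422 in *Irf1-/-* HSCs, with 1 *Irf1-/-* library inside the WT range (log2 fold change −0.46, adjusted *P* = 0.239, limma). Leaving out *Irf1-/-* replicate 3 gave −0.25, and leaving out *Irf1-/-* replicate 2 gave −0.66. *Mxd3* overlaps *Prelid1*. *Mlxip* had a log2 fold change in limma of 0.081 (adjusted *P* = 0.772), and *Mlxipl* was low, with between 15.6 and 26.8 normalized counts in any library.

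Cofactors of the network gave few differences. Of 13 MYC cofactors, which include the TRRAP, TIP60, and RUVBL chromatin complexes, 4 had higher and 9 lower means in *Irf1-/-* HSCs (median log2 fold change −0.041). The lowest unadjusted *P* values were those of *Actl6a* (log2 fold change −0.35, adjusted *P* = 0.0720, limma), *Ruvbl2* (−0.23), and *Ep400* (−0.19). Of 13 genes for MYC turnover, 11 were lower, with a median of −0.20, and the list includes *Skp2*, a ubiquitin ligase subunit (−0.33), and *Cip2a*, which stabilizes MYC (−0.51). Of 11 genes of the SIN3 corepressor 8 were lower, with a median of −0.11, and *Sap130* (0.27), *Hdac2* (−0.19), and *Rbbp4* (−0.16) led. Of 9 partners of MGA in the noncanonical Polycomb complex 7 were lower, with a median of −0.10, led by *Tfdp1* (−0.33), *Pcgf6* (−0.36), and *Cbx3* (−0.20). In limma 0 genes of these 4 lists had an adjusted *P* under 0.05, where 1.73% of the tested genes passed as higher and 1.49% as lower. This count depended on single mice, with *Actl6a*, *Cip2a*, *Pcgf6*, and *Tfdp1* passing as lower without WT replicate 3, *Actl6a* alone without *Irf1-/-* replicate 2, and 0 genes with each of the other libraries left out. Of all tested genes, 992 of 17202 passed in either direction without WT replicate 3, and 486 of 17530 without *Irf1-/-* replicate 2. The log2 fold change of *Cip2a* was −0.74 without WT replicate 3 and −0.31 without *Irf1-/-* replicate 3. At an unadjusted *P* under 0.05 limma found 9 of the 46 genes lower and 0 higher, against 8.07% and 8.38% of all tested genes. In edgeR 0 genes passed, where 1.6% of its tested genes passed as lower. In DESeq2 3 of the 46 had an adjusted *P* under 0.05, *Actl6a*, *Tfdp1*, and *Pcgf6*, all lower, where 4.61% of its tested genes passed as lower.

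Genes that MYC is known to activate had lower values in *Irf1-/-* HSCs. Over 3 lists of such targets 72 of 78 genes had a negative log2 fold change, with a median of −0.22, where 50.4% of all tested genes were negative and their median was −0.0028. The lists were chosen with earlier results of these data known, so this comparison is a description and not an independent test. In limma 4 of the 78 had an adjusted *P* under 0.05, all lower, where 1.49% of all tested genes passed as lower. An unadjusted *P* under 0.05 in that direction was found in 41 (52.6%), against 8.07% of all tested genes. At an adjusted *P* under 0.05, edgeR passed 8 of the 78 and DESeq2 20, all lower, where 1.6% and 4.61% of their tested genes passed as lower. The libraries of 36 (46.2%) did not overlap with *Irf1-/-* lower, against 9.27% of all tested genes, and those of 2 did not overlap with *Irf1-/-* higher, against 10.6%. Target counts depended on single mice, with 23 of 78 at an adjusted *P* under 0.05 without WT replicate 3, 3 without *Irf1-/-* replicate 2, 1 without WT replicate 2 or *Irf1-/-* replicate 1, and 0 without WT replicate 1 or *Irf1-/-* replicate 3 (limma). Totals over all tested genes, in either direction, moved too, with 992 of 17202 without WT replicate 3 and 486 of 17530 without *Irf1-/-* replicate 2. They were 273 of 17518 without WT replicate 2 and 291 of 17305 without *Irf1-/-* replicate 1. Without WT replicate 1 the total was 309 of 17468, and without *Irf1-/-* replicate 3 it was 230 of 17345. Between 70 and 73 of the 78 had negative fold changes in these fits.

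All 30 nucleolar and ribosome assembly targets had lower means in *Irf1-/-* HSCs, with log2 fold changes between −0.41 and −0.10 and a median of −0.22 that was −0.13 without WT replicate 2. *Pa2g4*, a growth-regulating protein of the nucleolus, had 5424, 6073, and 5209 normalized counts in WT and 3849, 4187, and 4503 in *Irf1-/-* HSCs. Each *Irf1-/-* value was lower than each WT value. *Pa2g4* alone in the list passed an adjusted *P* of 0.05 (log2 fold change −0.41, adjusted *P* = 0.0319, limma), where 1.49% of all tested genes passed as lower. *Npm1*, which encodes the abundant nucleolar protein nucleophosmin and was close to *Nop56* as the most abundant of the list per length of the longest transcript in WT, had 17342, 18530.4, and 16869.5 normalized counts in WT and 13055, 14960, and 14635 in *Irf1-/-* HSCs (−0.31, adjusted *P* = 0.0772, limma). *Npm1* passed without WT replicate 3. *Fbl*, the methyltransferase fibrillarin, had a log2 fold change in limma of −0.29 (adjusted *P* = 0.0842).

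Of 30 metabolic targets 26 had lower means, with a median log2 fold change of −0.21. *Nme1*, a nucleoside diphosphate kinase, had 11991, 12426, and 12256.5 normalized counts in WT and 7678, 10161, and 9173 in *Irf1-/-* HSCs. It was the only gene of the list with an adjusted *P* under 0.05 in limma (log2 fold change −0.45, adjusted *P* = 0.0270), where 1.49% of all tested genes passed as lower. *Mthfd2*, a mitochondrial enzyme of the folate cycle, had 809, 974, and 655 in WT and 498, 601, and 381 in *Irf1-/-* HSCs (−0.73, adjusted *P* = 0.0591, limma). *Srm*, spermidine synthase, had a log2 fold change in limma of −0.40 (adjusted *P* = 0.0685). Both had an adjusted *P* under 0.05 in edgeR (0.0443 and 0.0453), in limma both passed without WT replicate 3, and *Mthfd2* also passed without *Irf1-/-* replicate 2. The most abundant gene of the list per length, *Ldha*, had a log2 fold change in limma of −0.22 (adjusted *P* = 0.282).

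Of 18 cell cycle targets 16 had lower means, with a median of −0.37 (−0.24 without WT replicate 2). The libraries of 12 did not overlap with *Irf1-/-* lower, against 9.27% of all tested genes. *Cks1b* and *Cks2*, which encode small subunits of cyclin-dependent kinase complexes, passed an adjusted *P* of 0.05, where 1.49% of all tested genes passed as lower. *Cks1b* had 5813, 5577, and 5178 normalized counts in WT and 4172, 3977, and 3161 in *Irf1-/-* HSCs (log2 fold change −0.56, adjusted *P* = 0.0125, limma). *Cks2* had 2335, 2038, and 1835 in WT and 1559, 1538, and 1133 in *Irf1-/-* HSCs (−0.56, adjusted *P* = 0.0427, limma). *Mcm7*, of the replicative helicase, had a log2 fold change in limma of −0.37 (adjusted *P* = 0.0582) and passed without WT replicate 3. Whether these 4 target genes passed depended on single mice, whereas with each library left out the log2 fold changes stayed between −0.64 and −0.44 for *Cks1b*, −0.64 and −0.41 for *Cks2*, −0.54 and −0.34 for *Nme1*, and −0.47 and −0.35 for *Pa2g4*. *Cks1b* lost its adjusted *P* under 0.05 without WT replicate 1 or *Irf1-/-* replicate 3, and *Nme1* without WT replicate 1 or 2 or *Irf1-/-* replicate 1 or 3. *Pa2g4* and *Cks2* kept it only without WT replicate 3 among the fits with 1 library left out.

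Transcripts of dividing cells were also lower. All 12 proliferation genes had lower means in *Irf1-/-* HSCs and a median of −0.53 on the log2 scale, and their summed normalized counts were 76188.5, 78799, and 59125.5 in WT and 53403, 56345, and 37759 in *Irf1-/-* HSCs. *Irf1-/-* replicate 3 was the lowest, and every *Irf1-/-* sum was below every WT sum. *Top2a* (−0.77, adjusted *P* = 0.0177), *Mki67* (−0.67, adjusted *P* = 0.0427), and *Aurkb* (−0.63, adjusted *P* = 0.0368) were called lower in limma, where 166 of all 17404 tested genes were. These 3 were not past an adjusted *P* of 0.05 in edgeR, at 0.0673, 0.0979, and 0.0669, and were past it in DESeq2, at 6.55e-05, 0.00204, and 0.00156. In DESeq2, where 4.61% of the tested genes passed as lower, 10 of the 12 genes had an adjusted *P* under 0.05, all lower. In edgeR, where 1.6% of the tested genes passed as lower, 1 of the 12 genes did. That gene was *Cdk1*, the kinase that drives mitosis, with an adjusted *P* of 0.0392 in limma and 0.0285 in edgeR and a log2 fold change of −0.50, short of the fold threshold. Without *Irf1-/-* replicate 3 or WT replicate 1 or 2 none of these 4 genes passed limma's adjusted *P* of 0.05, and the same held for *Mki67* and *Cdk1* without *Irf1-/-* replicate 1 and for *Aurkb* without *Irf1-/-* replicate 2. Of the 12 genes limma passed 9 without WT replicate 3, 6 without *Irf1-/-* replicate 2, and 2 without *Irf1-/-* replicate 1, all lower. In these fits 992 of 17202, 486 of 17530, and 291 of 17305 tested genes passed in either direction. The part of fewer dividing cells in the lower MYC target levels was not tested.

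Genes that MYC is known to repress did not move together. Of 9 such genes 8 were tested, 5 with higher and 3 with lower means, and the median log2 fold change was 0.078. *Cdkn1a*, the cyclin-dependent kinase inhibitor p21, had 245, 175, and 144 normalized counts in WT and 287, 351, and 312 in *Irf1-/-* HSCs. All *Irf1-/-* libraries lay above all WT libraries, with a log2 fold change in limma of 0.78 (adjusted *P* = 0.1003) that passed in DESeq2 (adjusted *P* = 0.0267) and not in edgeR (0.121). *Ndrg2* (0.19) and *Ndrg1* (0.14) followed, and *Cdkn2b* was too low to test, with at most 16.4 normalized counts. By limma 0 genes of this list passed after adjustment, and 1 had an unadjusted *P* under 0.05 as higher, as did 8.38% of all tested genes.

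Targets of the MLX partners MondoA and ChREBP were higher in *Irf1-/-* HSCs in 3 of 4 genes, short of the threshold in limma. *Txnip*, an inhibitor of glucose uptake and the best known target of MondoA, had 30516, 37340.4, and 37176 normalized counts in WT and 60842, 37707, and 60014 in *Irf1-/-* HSCs. *Irf1-/-* replicate 2 was close to the WT libraries, and replicates 1 and 3 were well above them. The log2 fold change in limma was 0.57 (adjusted *P* = 0.0703). Its paralog *Arrdc4* had 3606, 5946, and 5271 in WT and 8144.51, 6058, and 7687 in *Irf1-/-* HSCs (0.58 in limma, adjusted *P* = 0.0655), and *Klf10* had a log2 fold change in limma of 0.31 (adjusted *P* = 0.0922). The 3 genes had an adjusted *P* under 0.05 in DESeq2 (0.00179, 0.00651, and 0.0234) and not in edgeR (0.133, 0.151, and 0.0740). Of all genes tested by these tools, 9.79% and 3.54% passed in either direction. In limma these 3 had an unadjusted *P* under 0.05, as did 8.38% of all tested genes in that direction. After adjustment 0 of the 4 genes passed at 0.05, where 1.73% of the tested genes passed as higher. Single mice decided this count too, since *Arrdc4* passed without WT replicate 2 (log2 fold change 0.73), WT replicate 3 (0.64), or *Irf1-/-* replicate 2 (0.71) and stood at 0.37 without WT replicate 1, and *Txnip* passed without *Irf1-/-* replicate 2 (0.79). The remaining gene, *Pklr*, a pyruvate kinase, had 61.7, 60.9, and 99.0 normalized counts in WT and 86.3, 49.3, and 26.0 in *Irf1-/-* HSCs, with overlapping groups and a log2 fold change in limma of −0.57 (adjusted *P* = 0.624). *Irf1-/-* replicates 1 and 3 also had positive scores on the first principal component, and its part in these values was not tested.

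**Figure D2:**
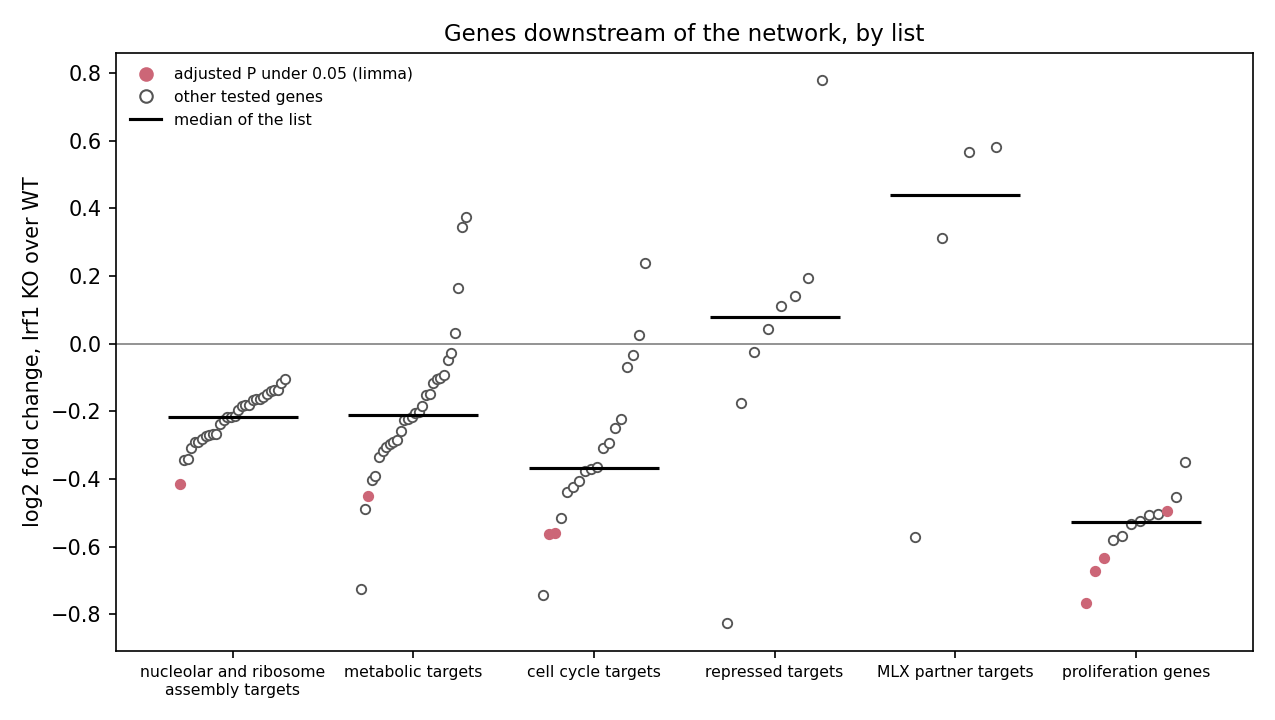
Log2 fold change (*Irf1-/-* over WT, vertical axis) of each tested gene of 6 lists (horizontal axis), with filled points for an adjusted *P* under 0.05 in limma and a black line at the median of each list. The proliferation genes are markers of dividing cells and were not chosen as targets of the network, and the other lists hold known targets. All 30 nucleolar targets and all 12 proliferation genes lie below 0, whereas the MLX partner targets have a median of 0.44.

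The E-box was found in 15 of the 67 activated targets with a promoter (22.4%), against 10.7% of the tested genes that have one. By list it was found in 7 of 24 nucleolar (29.2%), 6 of 27 metabolic (22.2%), and 2 of 16 cell cycle targets (12.5%). TTTGGCGC, the motif picked from the *Mycn* promoter, was found in 1, 0, and 5 of these, against 0.979% of the tested genes. Among the targets with an adjusted *P* under 0.05 the E-box was present in *Nme1*, whose start has 2 entries. Both windows are shown with the E-box in capitals.
Nme1, chr11:93968275-93968300 (−): tgcggggaacCACGTGaggccgggga
Nme1, chr11:93968039-93968064 (−): cttgatacgcCACGTGggctcgcctt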

How the data were processed

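RNA of sorted HSCs from 3 WT and 3 *Irf1-/-* mice was sequenced. cDNA was amplified with SMART-Seq v4, and, per the submitters' processing notes, reads were handled with Trim Galore and HISAT2 on build mm39. The authors counted reads per gene with htseq-count and deposited a signal, each count divided by 1 DESeq2 size factor per library. Versions, annotation, and strand setting are not given in the sources used here. All 6 columns were used, with replicate numbers taken from the sample titles.

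The members and gene lists were chosen with earlier results of these data known. Deposited values were 100% whole multiples of the smallest value of their library (tolerance 0.01), so reads were recovered. limma 3.58.1 (R 4.3.3) with an intensity trend was the main test, with Benjamini-Hochberg adjustment. Of 17404 genes, 167 were called higher and 166 lower. On recovered reads, edgeR 4.0.16 called 168 higher and 149 lower, and DESeq2 1.42.0 called 295 and 209. Libraries of the same genotype differed by more than counting noise, with a mean chi-square of 15.0 to 27.6 per gene. For single values, 3 mice against 3 cannot give an exact permutation *P* below 0.1, and none is given.

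Named genes are the members, *Irf1*, *Mxd3*, *Mlxip*, *Mlxipl*, genes called in each list or, with fewer than 2 called, the 3 of lowest unadjusted *P*, the most abundant gene per length, and the 3 nearest profiles. Overlapping genes, cell type markers named singly, and single genes behind small counts were named after their values were seen. Some genes that this rule names are not reported here. Transcript lengths came from GENCODE vM1 by symbol. Alternatives covered the pseudocount (0.5 and 8), the filter (none, and a mean of at least 50), the trend, quantile normalization, edgeR with TMM, DESeq2, a replicate block, transcript length, and each library left out.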

Additional observations from a re-analysis of the deposited data

How the results depend on the processing

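Without the trend in the prior variance, limma called 7 genes higher and 33 lower, 40 genes had an adjusted *P* under 0.05, and 0 members did, including *Mycn* (adjusted *P* = 0.199, range 6.05e-05 to 0.199 over 15 alternatives). DESeq2 called 295 genes higher, with 1282 at an adjusted *P* under 0.05. The cause was not tested. With a mean of at least 50, the median log2 fold change of the network partners was −0.19, because *Mlxipl* was then not tested. With the median transcript length, WT levels per kilobase were 269 for *Mnt*, 452 for *Mxd4*, and 926 for *Mxi1*.

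With each library left out in turn, 83 to 304 genes were called higher and 105 to 265 lower, and 230 to 992 had an adjusted *P* under 0.05. Of the members 0 to 1 were called, 0 to 2 had an adjusted *P* under 0.05, and 3 to 5 did not overlap, against 2 with quantile normalization or TMM. Log2 fold changes changed sign for *Myc* (−0.061 to 0.20), *Max* (−0.068 to 0.98), *Mlx* (−0.13 to 0.036), and *Mlxipl* (−0.028 to 0.36), with fewer samples in each fit. Median log2 fold changes were then between −0.29 and −0.13 for nucleolar, −0.26 and −0.16 for metabolic, and −0.49 and −0.24 for cell cycle targets, and between −0.67 and −0.35 for proliferation genes. Medians of the cell type marker lists were not run under the alternatives. Of the other list medians, only that of the network partners changed sign in the 15 alternatives.

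With the replicate block, 1075 genes had an adjusted *P* under 0.05 instead of 561, and 1 member did in either fit. Correlations of deviations across genes between mice with the same number were −0.094, 0.25, and 0.15. WT replicate 1 correlated best with *Irf1-/-* replicate 2 (0.10) and WT replicate 3 with *Irf1-/-* replicate 1 (0.251). WT replicate 2 correlated best with *Irf1-/-* replicate 2 (0.246). The sample titles give no pairing beyond the number, and these mixed values cannot decide whether mice with the same number were paired. With 3 mice per group, the 95% confidence intervals of the tested members other than *Mycn* include 0 in limma. *Mycl* was left out by the mean of at least 10 and had an adjusted *P* only with no filter (0.202).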
